A study of Mus musculus with 48 samples.

Results

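The genes described here are 36 splicing factors and nuclear speckle genes of the mouse colon. They were chosen by name, as the rows of the count table whose Ensembl identifier carries 1 of 36 listed symbols in the GENCODE vM21 annotation, out of 55401 genes in the table. All 36 were found and all 36 passed the filter on low counts that left 14475 genes for testing. The lowest raw count of any of them in any mouse was 26, so no value rested on a count near 0. The list holds 10 SR proteins, 2 Tra2 splicing activators, 4 CLK kinases, 5 scaffold proteins of speckles and exon junctions, 4 proteins of the U1 particle and its Luc7-like partners, 3 proteins of the 3′ splice site and related RNA binding, 2 L-type cyclins, 2 DEAD-box helicases and 4 other nuclear RNA proteins.

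Colon RNA came from 48 adult male mice on a C57BL/6J background. *Bmal1*IEC-/- mice (*Bmal1*fl/fl x Villin CRE/wt) carried floxed *Bmal1* alleles and the Villin-Cre transgene, which is active in the epithelium of the gut, and control mice (*Bmal1*flox/flox, *Bmal1*fl/fl x Villin wt/wt) were littermates with the same floxed alleles and no Cre. Muscle, connective tissue and immune cells of the colon thus kept *Bmal1* in both genotypes, and in whole-tissue RNA fewer cells of a type and less RNA per cell cannot be told apart. At each of 6 circadian times, CT1, CT5, CT9, CT13, CT17 and CT21, 4 mice of each genotype were sampled on the second day of constant darkness, single housed with a running wheel and free access to chow. In this design CT0 to CT12 is the subjective day and CT12 to CT24 the subjective night. A pair of *Bmal1*IEC-/- mice at CT1, SV384 and SV385, had unusual values and is shown apart, so every test below rests on 24 control and 22 *Bmal1*IEC-/- mice, with 2 *Bmal1*IEC-/- mice left at CT1.

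Most mammalian genes are interrupted by introns, which the spliceosome removes from the primary transcript in the nucleus. SR proteins bind exons through RNA recognition domains and recruit the U1 particle to the 5′ splice site and the U2AF dimer to the 3′ splice site through domains rich in arginine and serine. CLK kinases phosphorylate those domains and release SR proteins from nuclear speckles, the bodies in which splicing factors are stored around the scaffold proteins Son and Srrm2. Many SR protein and CLK genes limit their own expression by splicing in an exon that brings a premature stop, or by keeping an intron that holds the transcript in the nucleus. Counts per gene measure the mRNA of these genes, not speckles, protein or the choice of exons.

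Total counts ran from 3145000 to 4785840 per mouse in the other 46 mice. They were 3271890 in SV384 and 3785970 in SV385, both inside that range. The pair had fewer genes with a count, 18697 and 18285 against 19577 to 20878 in the other 46. The 2 mice also differed from each other, with a chi-square per gene of 8.45 between their counts, and SV384 differed by 8.42 and 8.98 from the other 2 *Bmal1*IEC-/- mice at CT1 and SV385 by 15.2 and 16.3. Pairs of *Bmal1*IEC-/- mice at CT9 reached 13.2, and the lowest value of any pair within a group was 2.01. The labels were checked with the deleted gene. *Arntl*, the gene symbol of *Bmal1*, swung in control mice from 6.86 ± 2.29 CPM at CT9 to 67.7 ± 4.61 at CT1 (CPM, counts scaled to the TMM-adjusted library total, SD, n = 4) and in *Bmal1*IEC-/- mice only from 29.5 ± 7.97 at CT9 to 45.98 ± 1.82 at CT1 (n = 4 and 2). The difference in rhythm passed edgeR's quasi-likelihood test (Benjamini-Hochberg adjusted p = 5.05e-13). *Nr1d1*, a direct target of BMAL1, was lower in *Bmal1*IEC-/- mice by a log2 fold change of -1.48 ± 0.12 (SE, adjusted p = 2.39e-13). In SV384 and SV385 *Arntl* had 27.7 and 25.3 CPM, and 44.7 and 47.3 CPM in the other 2 *Bmal1*IEC-/- mice at CT1.

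Promoter sequence is shown for 5 members whose mRNA was rhythmic in control mice, since clock factors act through short motifs near the start of transcription. No fixed rule chose these 5, so how many of them carry a motif does not describe the members. Shares over the members with a window are given after the sequences. RefSeq promoter windows (build GRCm38.p6, the assembly also called mm10, 250 bases before to 50 after a transcript start) matched 34 of the 36 members, all but *Luc7l* and *Clk1*. The 250 bases before the start are printed 5′ to 3′ on the gene's strand, and none of them lies in an exon of GENCODE vM21. Capitals mark a match to 1 of 5 motifs on either strand: CACGTG (the E-box bound by CLOCK and BMAL1), AGGTCA (the half-site bound by Rev-erb and ROR receptors), TTATGNAA (the D-box bound by DBP), TGACGTCA (the cyclic AMP response element) and GAANNTTC (the core of the heat shock element).
*Ccnl2*, chr4:155812239-155812488, plus strand: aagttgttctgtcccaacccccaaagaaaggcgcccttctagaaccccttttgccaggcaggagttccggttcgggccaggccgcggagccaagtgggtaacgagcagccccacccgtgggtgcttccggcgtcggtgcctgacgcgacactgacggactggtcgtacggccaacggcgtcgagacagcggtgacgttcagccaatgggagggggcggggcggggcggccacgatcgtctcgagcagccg
*Srsf6*, chr2:162931258-162931507, plus strand: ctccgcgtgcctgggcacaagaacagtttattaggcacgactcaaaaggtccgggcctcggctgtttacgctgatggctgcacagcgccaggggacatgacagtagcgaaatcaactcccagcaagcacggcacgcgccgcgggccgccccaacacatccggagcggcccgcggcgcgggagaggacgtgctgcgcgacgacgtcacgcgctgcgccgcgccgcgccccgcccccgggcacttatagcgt
*Srsf9*, chr5:115326927-115327176, plus strand: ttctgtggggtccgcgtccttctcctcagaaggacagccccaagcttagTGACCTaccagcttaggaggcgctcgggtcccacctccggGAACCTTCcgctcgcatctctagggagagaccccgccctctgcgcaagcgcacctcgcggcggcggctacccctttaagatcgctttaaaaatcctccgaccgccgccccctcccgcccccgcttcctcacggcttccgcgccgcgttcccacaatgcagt
*Tra2a*, chr6:49264053-49264302, minus strand: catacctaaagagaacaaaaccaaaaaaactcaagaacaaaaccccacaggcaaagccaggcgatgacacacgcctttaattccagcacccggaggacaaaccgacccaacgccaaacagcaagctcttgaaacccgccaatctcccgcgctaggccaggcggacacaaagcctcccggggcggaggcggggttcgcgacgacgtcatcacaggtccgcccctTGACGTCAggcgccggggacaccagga
*Clk2*, chr3:89164545-89164794, plus strand: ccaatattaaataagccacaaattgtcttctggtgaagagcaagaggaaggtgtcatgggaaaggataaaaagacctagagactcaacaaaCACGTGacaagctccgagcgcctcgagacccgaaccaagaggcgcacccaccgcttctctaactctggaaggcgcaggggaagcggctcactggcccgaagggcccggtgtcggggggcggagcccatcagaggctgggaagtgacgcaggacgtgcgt

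The windows of the members were rich in G and C, with a median of 64.3% against 60.3% in the 13838 windows of 10807 tested genes. The E-box letters were found in 2 of 34 members (5.88%), *Clk2* at 159 bases before the start and *Ddx5*, against 11.3% of the tested genes. The Rev-erb and ROR half-site was found in 3 members (8.82%, *Ddx5*, *Srsf3* and *Srsf9*), against 15.0% of the tested genes. The cyclic AMP response element was found in *Ccnl1*, *Clk4* and *Tra2a*, 8.82% of members against 3.48% of tested genes, and the heat shock core in *Ddx17*, *Srsf9* and *Tra2b*, 8.82% against 6.99%. The D-box was found in *Snrnp70* alone, 2.94% against 2.50%. With 34 genes, a share of this size rests on 1 to 3 genes. A match is a description of letters, and the absence of a match says only that these letters are not in this window.

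Per kilobase of exon, the level in control mice spanned from 4.25 CPM per kb for *Srsf1* and 4.66 for *Srsf4*, both SR proteins, to 128 for *Srsf5* and 228 for *Ddx5*, an RNA helicase that unwinds splicing substrates. *Srrm2*, the speckle scaffold, stood at 91.0 and *Ddx17*, the paralog of *Ddx5*, at 84.6 CPM per kb. The members were steady among mice of 1 group. The SD of log2 CPM within a group of the same genotype and time had a median of 0.13 over the 36 members against 0.23 over all genes tested. *Ccnl2* was lowest at 0.08 and *Srsf4* highest at 0.22. The members and all genes were not matched for level, and the part of level in this difference was not tested. The authors left out reads that overlapped several features, so reads in exon bases shared with another gene could be lost. The level per kilobase would then be too low. Such shares were largest in 5 members. On the opposite strand, 43.0% of *Srsf4* is shared with *Gm12992* and 25.3% of *Srsf2* with *Mettl23* and *Mfsd11*. There also, 18.9% of *Luc7l2* is shared with *Gm26699* and 15.2% of *Clk3* with *Edc3*. On the same strand, 21.45% of *Pabpn1* is shared with *Gm20521*. For the opposite strand, a loss depends on the strand setting, which is not given. In the other members the share was at most 7.37%.

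The first comparison asks whether loss of *Bmal1* in the epithelium shifted the level of these genes over the day. Of the 36 members, 1 rose and 1 fell with loss of *Bmal1* and 34 did not pass (edgeR's quasi-likelihood test, p adjusted by Benjamini-Hochberg over 14475 genes, threshold 0.05). Of all genes tested, 11.1% passed, with 5.44% higher and 5.64% lower, so the share among the members, 2 of 36, was below that of the tested genes. With a fold change of 1.5 required, 0 members passed, against 1.36% of all genes. The median log2 fold change was 0.03 over the members and 0.00 over all genes, and the median size of the change was 0.05 and 0.08.

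*Tra2b* encodes an activator that binds GAA-rich exons together with SR proteins. It ranged from 98.8 to 151 CPM with a median of 114 in control mice and from 106 to 156 with a median of 123 in *Bmal1*IEC-/- mice. The ranges overlap over most of their length. The log2 fold change was 0.13 ± 0.04 (SE), a 1.09-fold rise (edgeR adjusted p = 0.0161), and it passed in all 46 fits that left out 1 mouse. Group means were higher in *Bmal1*IEC-/- mice at each of the 6 times, most at CT1 (138 ± 4.71 CPM in 2 mice against 112 ± 8.54 in 4) and least at CT5 (118 ± 8.50 against 115 ± 5.27).

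*Ccnl2* encodes cyclin L2, the partner of a CDK11 kinase found in speckles. It ranged from 239.8 to 353 CPM with a median of 276 in control mice and from 223 to 308 with a median of 268 in *Bmal1*IEC-/- mice. The log2 fold change was -0.10 ± 0.03 (SE), 0.94-fold (edgeR adjusted p = 0.0134). At CT9 the 4 control mice had 295, 311, 313 and 321 CPM and the 4 *Bmal1*IEC-/- mice 247, 256, 284 and 304. At CT13 the control mice had 311, 315, 337 and 353 CPM and the *Bmal1*IEC-/- mice 274, 294, 303 and 308. The groups overlapped at CT9 and did not overlap at CT13, while at CT1 the 4 control mice (256 to 269.5 CPM) and the 2 *Bmal1*IEC-/- mice (269.5 and 270.3) were close. The call was lost in the fit without a time term (adjusted p = 0.219) and in the fit without a filter on low counts (adjusted p = 0.203).

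**Figure D1:**
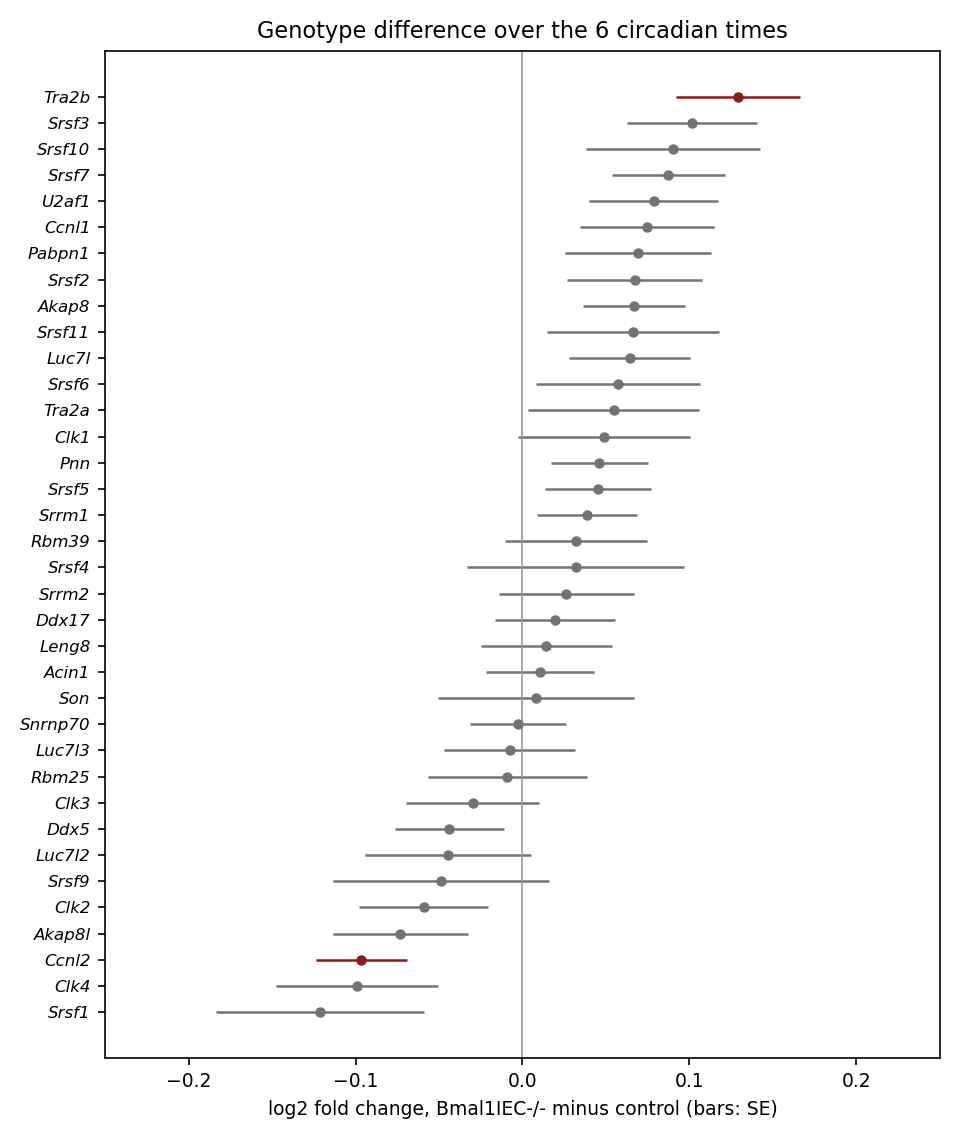
Log2 fold change of each of the 36 genes between *Bmal1*IEC-/- (22 mice) and control (24 mice), with circadian time in the model. Points are estimates, bars are 1 SE, and red marks an adjusted p under 0.05. *Tra2b* at 0.13 and *Ccnl2* at -0.10 are the 2 genes that passed, and *Srsf1* at -0.12 did not.

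The closest members that did not pass were SR proteins. *Srsf3*, whose product also links splicing to mRNA export, had a log2 fold change of 0.10 with an adjusted p of 0.085, and passed only in the fit without the *Bmal1*IEC-/- CT9 mouse SV410 (adjusted p = 0.0482). *Srsf7* had 0.09 ± 0.03 with an adjusted p of 0.09. *Srsf1*, the founding SR protein, had the largest negative value among those that did not pass, -0.12 ± 0.06 with an adjusted p of 0.226. Among cell type markers, 5 of 14 for epithelium were higher in the knockout and 2 lower, and 3 of 10 smooth muscle markers were lower and 0 higher. The epithelium sum ran from 16854 to 25309 CPM in control and from 18981 to 24667 CPM in *Bmal1*IEC-/- mice and the smooth muscle sum from 4483 to 6760 and from 4004 to 6155 CPM, with no marker of either list at 0 in all mice. The part of such shifts in the values of *Tra2b* and *Ccnl2* was not tested.

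The second comparison asks which of these genes followed a 24-h rhythm in control mice. In control mice 18 of the 36 members (50%) were rhythmic at an adjusted p under 0.05 for a 24-h cosine (edgeR's quasi-likelihood test), against 49.8% of all genes tested, so rhythm was no more frequent among the members than in the colon transcriptome as a whole. Of the 18, 14 peaked in the subjective day and 4 in the subjective night, and 13 peaked between CT2 and CT9. Among all rhythmic genes 50.3% peaked in the day and 35.7% between CT2 and CT9. The window from CT2 to CT9 was chosen after the peaks were seen, so its shares are a description and no support for clustering. The swings were small, with a median amplitude over the 36 members of 0.11 on the log2 scale against 0.20 over all genes, not matched for level. The largest peak-to-trough ratio of the fitted cosine was 1.63-fold, in *Srsf9*. The times compared for each rhythmic gene below, in either genotype, differ between genes and lie near its highest and lowest means. Lack of overlap between such times is a description and no further support for a rhythm. The count was 7 with SV384 and SV385 kept in the fit, which shares its spread between the genotypes, and 11 without a filter on low counts.

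Day-phased members held SR proteins, a U1 partner and speckle scaffolds. *Srsf6*, an SR protein that acts on exon choice in many tissues, had the largest swing of the day genes. The 4 control mice had 239, 319, 327 and 343 CPM at CT1 and 159.9, 180.1, 184 and 226 at CT13, and no CT13 mouse reached the lowest CT1 mouse. The fitted peak was at CT3.58 with a 1.59-fold swing (edgeR adjusted p = 7.37e-06). *Rbm39*, a U2AF-related protein of the 3′ splice site, had 375, 377, 386 and 386 CPM at CT1 and 252, 274, 281 and 297 at CT13. The 4 mice at CT1 lay close together and above all 4 at CT13, and the peak was at CT4.02 (1.395-fold, adjusted p = 0.000125).

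*Luc7l2*, a U1-associated factor that helps select the 5′ splice site, had 261, 273, 291 and 299.8 CPM at CT1 against 185, 193, 209 and 212 at CT21. All 4 mice at CT21 were below all 4 at CT1, and the fitted peak was at CT5.56 (1.44-fold, edgeR adjusted p = 0.000108). *Leng8*, a nuclear protein related to the mRNA export factor GANP, peaked at CT4.04 (1.36-fold, adjusted p = 0.000147), and *Son*, the core scaffold of speckles, at CT4.22 (1.41-fold, adjusted p = 0.00318). *Srsf5*, an SR protein, peaked at CT6.30 and *Snrnp70*, the U1-70K protein of the U1 particle, at CT7.68, with 1.24-fold and 1.204-fold swings. *Ccnl2* had 311, 315, 337 and 353 CPM at CT13 and 239.8, 256, 259 and 259 at CT21 in control mice, with no overlap. It peaked at CT11.7 on the edge of the night (1.28-fold, adjusted p = 6.49e-06), so its timing was unlike that of the morning genes above.

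**Figure D2:**
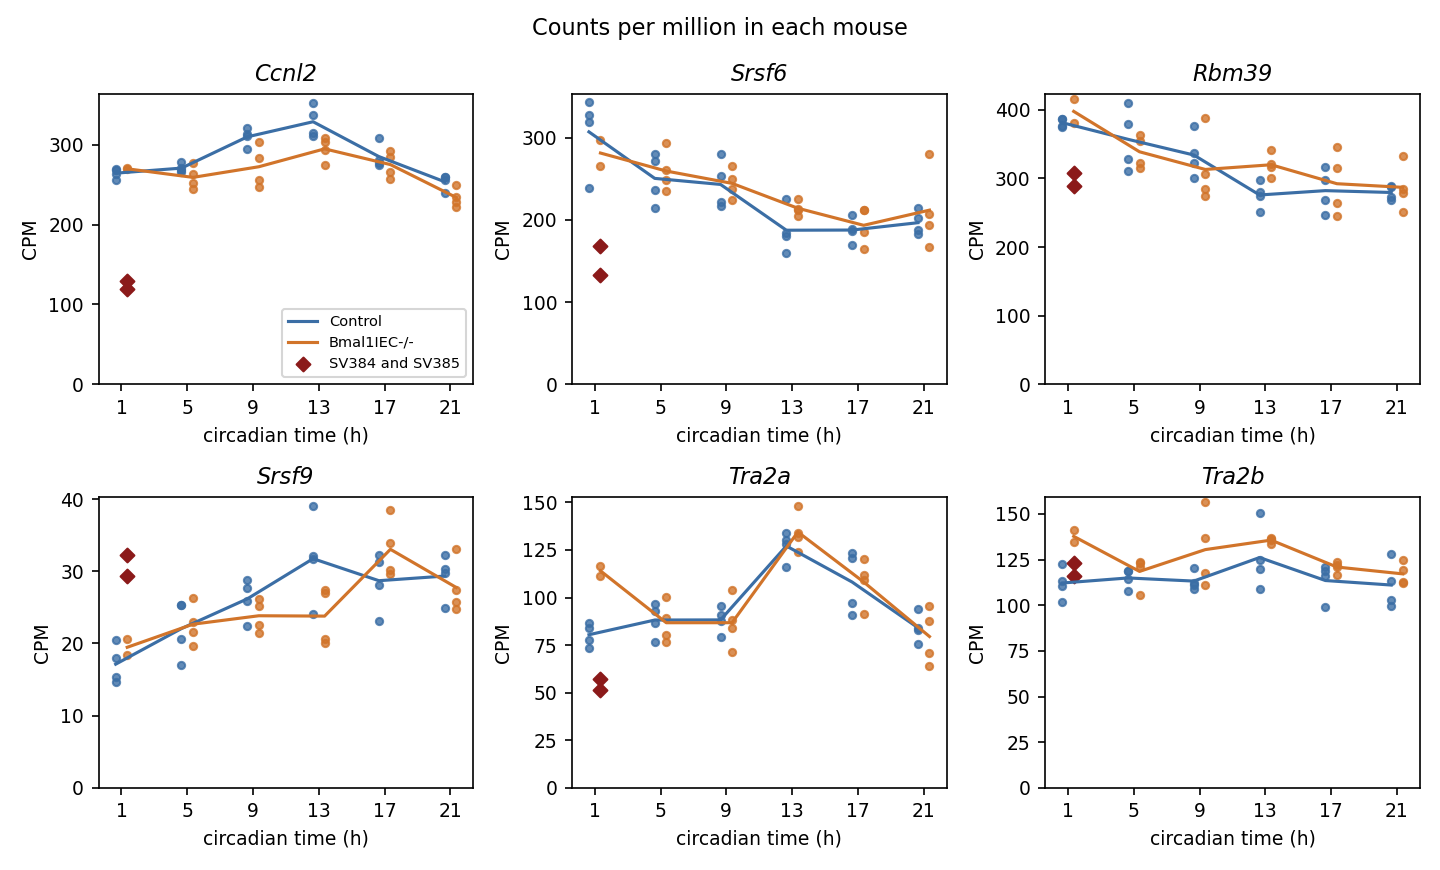
CPM of 6 members in each mouse by circadian time, in hours. Blue and orange points are control and *Bmal1*IEC-/- mice, lines join group means, and dark red diamonds are SV384 and SV385 at CT1. *Srsf6* and *Rbm39* fall from CT1 to CT13 in control mice, *Srsf9* and *Tra2a* are higher at CT13 than at CT1, and *Tra2b* shows no called rhythm.

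Night-phased members were *Srsf9*, *Tra2a*, *Clk3* and *Clk2*. *Tra2a*, the paralog of *Tra2b*, had 73.6, 77.7, 83.9 and 86.6 CPM at CT1 and 116, 128, 130.4 and 134 at CT13 in control mice. The groups did not overlap, and the fitted peak was at CT13.8 (1.504-fold, edgeR adjusted p = 0.000822). *Srsf9*, a small SR protein, had 14.7, 15.3, 18.0 and 20.5 CPM at CT1 and 24.1, 31.7, 32.2 and 39.1 at CT13, with a peak at CT14.8 (1.63-fold, adjusted p = 0.000213). *Srsf9* thus ran opposite to *Srsf6* and *Srsf5* within the SR family. *Clk3*, a kinase of the CLK family, had 59.0, 61.3, 61.8 and 63.0 CPM at CT9 and 68.5, 72.9, 74.3 and 79.0 at CT21. It peaked at CT17.2 (1.19-fold, adjusted p = 0.0192) and *Clk2* at CT15.1 (1.15-fold, adjusted p = 0.0457), while their relatives *Clk1* and *Clk4* peaked in the day at CT5.52 and CT6.26 (1.23-fold each). All 4 CLK kinases passed in control mice, 2 in the day and 2 in the night, but *Clk1* passed in only 21, *Clk2* in 37 and *Clk4* in 38 of 46 fits that left out 1 mouse, against 46 of 46 for *Clk3*.

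The remaining control rhythms were in *Srsf2*, *Pnn*, *Acin1* and *Rbm25*, with swings of 1.13-fold to 1.24-fold and adjusted p from 0.0172 to 0.0484. Srsf2 is the SR protein most used as a marker of speckles, pinin (*Pnn*) and acinus (*Acin1*) join the exon junction complex, and Rbm25 binds the U1 particle. *Pnn* passed in 14 of 46 and *Srsf2* in 33 of 46 fits that left out 1 mouse. The 18 members that did not pass included the speckle scaffold *Srrm2* (1.102-fold, adjusted p = 0.298), its relative *Srrm1* (1.03-fold, adjusted p = 0.771), the helicases *Ddx5* and *Ddx17* (adjusted p = 0.0523 and 0.054), *U2af1*, which recognises the AG of the 3′ splice site, and the U1 partner *Luc7l3*. By role, 4 of 10 SR proteins, 1 of 2 Tra2 genes, 4 of 4 CLK kinases, 3 of 5 scaffold genes, 2 of 4 U1 and Luc7-like genes, 2 of 3 genes of the 3′ splice site group, 1 of 2 L cyclins, no helicase and 1 of the 4 other nuclear genes were rhythmic.

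In *Bmal1*IEC-/- mice 11 of the 36 members (30.6%) passed the same rhythm test, against 27.2% of all genes tested. Of the 11, 8 peaked in the subjective day, 7 of them between CT2 and CT9, and 3 in the night. Of all rhythmic genes 52.2% peaked in the day and 38.8% between CT2 and CT9. Here too the window was chosen after the peaks were seen. The count rests on single mice, since it was 7 without SV399 (CT17) and 7 without SV410 (CT9). It was 6 by JTK_cycle, a rank test for rhythms, against 28.8% of all genes tested. In control mice JTK_cycle called 17 members, against 48.7% of all genes tested. Its p-values were corrected over phases and not over genes, unlike those of edgeR. Without a filter on low counts the edgeR count in *Bmal1*IEC-/- mice was 7. *Leng8* had the smallest p, with 314, 350.1, 365 and 377 CPM at CT9 and 247, 268, 269.7 and 296 at CT17, a peak at CT4.78 and a 1.29-fold swing (edgeR adjusted p = 0.00387). No mouse at CT17 reached the lowest mouse at CT9. *Srsf6* had 266 and 297 CPM in the 2 mice at CT1 and 164, 185, 212 and 212 at CT17, and *Ccnl2* had 274, 294, 303 and 308 CPM at CT13 and 223, 229, 235 and 249.7 at CT21. In both genes the groups did not overlap. *Srsf6* peaked at CT4.44 (1.38-fold, adjusted p = 0.00487), *Ccnl2* at CT11.8 (1.19-fold, adjusted p = 0.00862) and *Srsf5* at CT6.29 (1.19-fold, adjusted p = 0.0193). *Srsf5* had 532, 559, 588 and 589 CPM at CT5 and 425, 444, 484 and 498 at CT21, without overlap. Each of these 4 genes peaked within 1 h of its control peak.

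Night rhythms in *Bmal1*IEC-/- mice were called in *Srsf9* (CT17.3, 1.41-fold, edgeR adjusted p = 0.0163), *Tra2a* (CT14.0, 1.38-fold, adjusted p = 0.0261) and *Srsf10* (CT19.3, 1.29-fold, adjusted p = 0.0296). *Srsf9* had 18.4 and 20.6 CPM in the 2 mice at CT1 and 29.6, 30.1, 33.9 and 38.5 at CT17. *Tra2a* had 124, 132, 134 and 148 CPM at CT13 and 63.8, 71.0, 87.5 and 95.7 at CT21. Neither gene overlapped between these times. The *Tra2a* level at CT1 was 111 and 117 CPM in the 2 *Bmal1*IEC-/- mice and 73.6 to 86.6 in the 4 control mice. This time was chosen after the values were seen, and SV384 and SV385, left out of the tests, had 57.3 and 51.6 CPM. *Tra2a* passed neither the test between genotypes nor the test of the difference in rhythm, so these values do not show a genotype difference. The *Srsf9* call was lost without SV399 (adjusted p = 0.0615), that of *Tra2a* in 4 of 46 such fits (adjusted p up to 0.0845) and that of *Srsf10* in 7. *Srsf10*, an SR protein that represses splicing when dephosphorylated by heat, had 80.5, 85.4, 86.1 and 89.5 CPM at CT5 and 110.3, 110.8, 114 and 117 at CT17. It was the only member called in *Bmal1*IEC-/- mice and not in control mice, where its adjusted p was 0.0741. The other *Bmal1*IEC-/- calls were in *Clk1*, *Luc7l2*, *Snrnp70* and *Srsf2*, with adjusted p from 0.0203 to 0.0497. Of these, *Srsf2* passed in only 9 of 46 fits that left out 1 mouse (adjusted p up to 0.139), *Clk1* in 41, and *Luc7l2* and *Snrnp70* in 44 each.

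**Figure D3:**
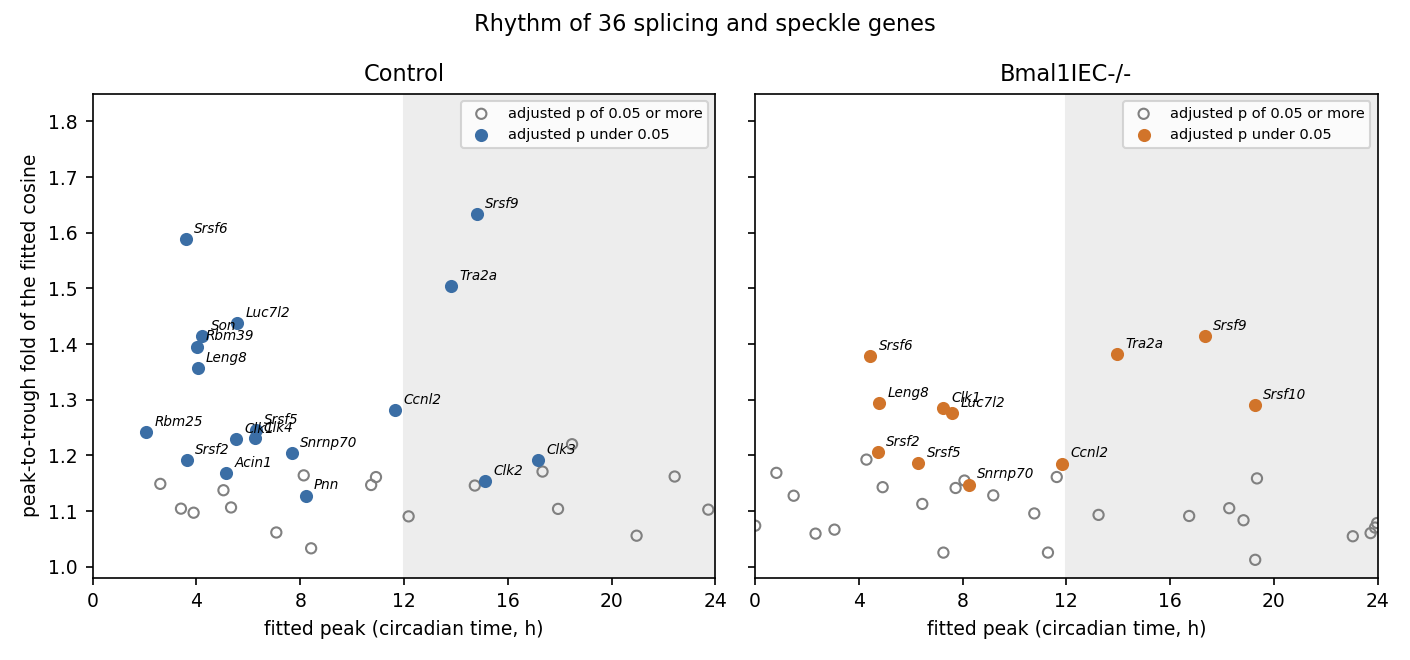
Fitted peak time (x axis, circadian time in hours) and peak-to-trough fold of the 24-h cosine (y axis) for the 36 genes in control mice (left) and *Bmal1*IEC-/- mice (right). Filled points passed an adjusted p of 0.05, open points did not, and grey shading marks the subjective night. In control mice 14 filled points lie in the day and 4 in the night, and in *Bmal1*IEC-/- mice 8 and 3.

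A rhythm was called in both genotypes in 10 members, in control mice alone in 8 and in *Bmal1*IEC-/- mice alone in 1. A call in 1 genotype does not show a difference, so the difference of the rhythms was tested itself. It passed in 0 of the 36 members by edgeR's quasi-likelihood test, against 0.94% of all genes tested, with a lowest adjusted p among the members of 0.412, and in 0 by DESeq2. At an unadjusted p under 0.05 the count was 1 of 36, *Clk2*, against 10.5% of all genes. *Clk2* went in control mice from 44.4, 48.7, 49.1 and 52.0 CPM at CT5 to 50.9, 56.6, 59.9 and 60.0 at CT17. In *Bmal1*IEC-/- mice it had 44.7, 50.1, 52.5 and 55.9 CPM at CT5 and 42.3, 49.99, 52.8 and 55.8 at CT17. The amplitude estimate was lower in *Bmal1*IEC-/- than in control mice in 28 of 36 members and in 9783 of all 14475 genes, as a description. *Son* had the largest drop among the called members, from 1.41-fold in control to 1.14-fold in *Bmal1*IEC-/- mice, and the test of that difference gave an adjusted p of 0.746.

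The members were also averaged in each mouse, and whether they varied together within a group was not tested. The mean over the 36 members of each mouse's log2 difference from the 46-mouse mean was highest at CT1, 0.05 ± 0.04 (SD, n = 4) in control and 0.12 ± 0.04 (n = 2) in *Bmal1*IEC-/- mice, and lowest at CT21, -0.08 ± 0.04 and -0.05 ± 0.03 (n = 4 each). The *Bmal1*IEC-/- mice at CT9 were the most spread group. They stood at 0.18 (SV418), 0.06 (SV400), -0.11 (SV410) and -0.11 (SV402), and the control mice at CT9 between -0.04 and 0.10. SV418 had the highest value of all 48 mice in 9 members. SV410 had the lowest of the 46 in 5 members and the highest in 2. *Son*, for example, had 327, 355, 479 and 583 CPM in the 4 *Bmal1*IEC-/- mice at CT9. The spread within groups was larger in *Bmal1*IEC-/- than in control mice in 32 of 36 members, against 60.6% of all genes tested, and in 20 of 36 against 49.1% when CT9 was left out in both genotypes. No test was made of this pattern.

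**Figure D4:**
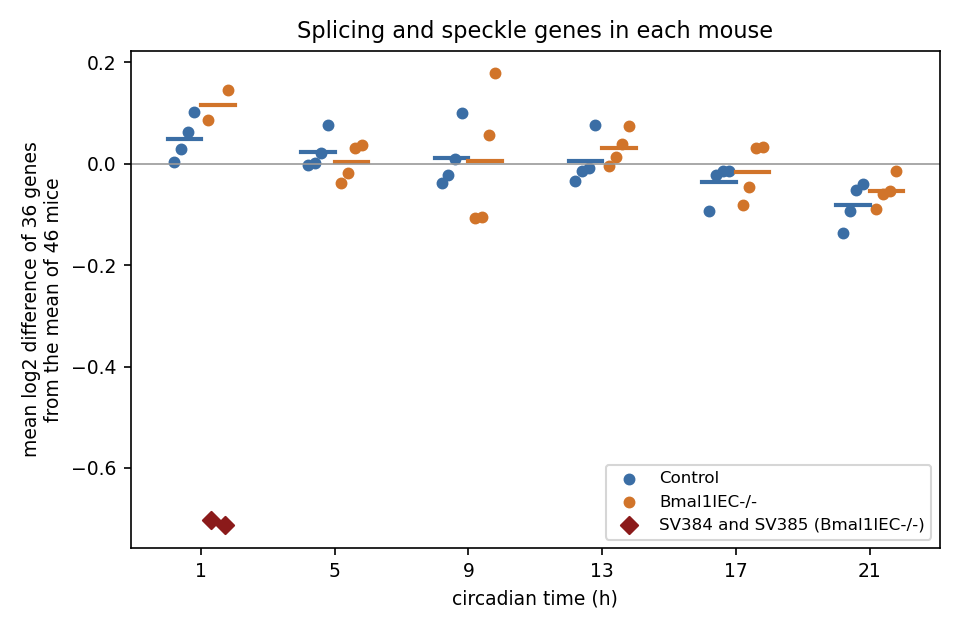
Mean over the 36 genes of the log2 difference between each mouse and the mean of 46 mice, by circadian time in hours. Blue and orange points are control and *Bmal1*IEC-/- mice, short lines are group means, and dark red diamonds are SV384 and SV385. The 46 mice lie between -0.14 and 0.18, and the pair at -0.70 and -0.71.

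SV384 and SV385 are described next, without any test, because the genes were listed with these mice in view. In both mice most of the splicing genes were low. The mean log2 difference over the 36 members was -0.70 in SV384 and -0.71 in SV385, against -0.14 to 0.18 in the other 46 mice, and 0.09 and 0.15 in the other 2 *Bmal1*IEC-/- mice at CT1, SV479 and SV480. Together the members held 5069 and 4980 CPM in the pair and 7442 to 10079 CPM in the other 46. In 25 of 36 members both mice were below all 46 others, and in 0 both were above. Over all genes tested these shares were 5.71% and 4.86%. The median difference of the pair was -0.71 over the members and -0.01 over all genes, and 8 members were lower by at least 2-fold on average, as were 9.4% of all genes.

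The farthest 4 members were *Pabpn1*, *Leng8*, *Srrm2* and *Akap8l*. *Pabpn1*, the nuclear poly(A) binding protein that controls tail length, had 8.37 CPM in SV384 and 11.8 in SV385, against 34.1 to 52.7 in control and 36.2 to 51.5 in the other *Bmal1*IEC-/- mice, a mean log2 difference of -2.09. *Leng8* had 90.1 and 83.8 CPM against 227 to 380.3 and 247 to 387 (log2 difference -1.84). *Srrm2*, the speckle scaffold, had 457 and 390 CPM against 1019 to 1429 and 937 to 1412 (log2 difference -1.47). *Akap8l*, a nuclear anchor protein that binds chromatin and RNA helicases, had 27.0 and 25.9 CPM against 60.6 to 89.8 and 54.8 to 82.2 (log2 difference -1.37). In these 4 genes the higher mouse of the pair lay 1.51, 1.33, 1.04 and 1.01 log2 units below the lowest of the other 46. The relative *Akap8* had 77.9 and 77.8 CPM against 125 to 161 and 133 to 172 (log2 difference -0.91).

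The order by role was uneven. All 4 CLK kinases were below the other 46 mice, with log2 differences of -1.06 (*Clk4*), -0.96 (*Clk2*), -0.87 (*Clk1*) and -0.58 (*Clk3*). All 4 U1 and Luc7-like genes were as well, from -1.04 (*Snrnp70*) to -0.65 (*Luc7l3*), and both L cyclins (*Ccnl2* -1.14, *Ccnl1* -0.66) and both helicases (*Ddx17* -0.73, *Ddx5* -0.69). Of the 5 scaffold genes 4 were below all others. *Son* was not, at 302 and 307 CPM against a lowest other mouse at 306, a *Bmal1*IEC-/- mouse at CT17. At CT1, however, *Son* had 584 and 572 CPM in the other 2 *Bmal1*IEC-/- mice and 479 to 651 in control mice. The pair's log2 difference from those 2 mice was -0.92. Of the 10 SR proteins only *Srsf11* (-1.03), *Srsf5* (-0.96) and *Srsf2* (-0.60) were below all others, and the pair's median over the SR proteins was -0.38.

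In 11 members, mostly SR proteins, at least 1 mouse of the pair lay inside the range of the other 46 over 6 times. Against the other 2 *Bmal1*IEC-/- mice at CT1 alone, the pair's log2 difference was -0.92 in *Son*, -0.91 in *Srsf6* and -0.60 in *Srsf4*. In *Rbm39* it was -0.41, in *Srsf7* -0.40 and in *U2af1* -0.34. It was -0.33 in *Srsf10*, -0.25 in *Srsf1* and -0.20 in *Tra2b*, and 0.03 in *Srsf3* and 0.65 in *Srsf9*. *Srsf3* had 248 and 256 CPM, with 184 to 254 in control and 203 to 295 in the other *Bmal1*IEC-/- mice. *Tra2b* had 123 and 116 CPM, with 98.8 to 151 and 106 to 156, a log2 difference of 0.00 from the 46-mouse mean. Its paralog *Tra2a* had 57.3 and 51.6 CPM, below the lowest other mouse at 63.8 CPM. *Srsf9* was 0.29 above the mean, with 29.3 and 32.3 CPM beside 18.4 and 20.6 CPM in the other 2 *Bmal1*IEC-/- mice at CT1, within the range of the control mice at CT13. *Srsf10*, *Rbm39*, *Srsf7*, *Srsf1* and *U2af1* had at least 1 mouse of the pair inside the range of the others. Their differences from the 46-mouse mean were -0.03 to -0.22. Nearest the edge, the gap on the log2 scale between the lowest other mouse and the higher mouse of the pair was 0.16 in *Tra2a* and 0.16 in *Srrm1*, and -0.01 in *Son*, -0.04 in *Srsf4* and -0.07 in *Srsf6*, where a negative gap means overlap.

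**Figure D5:**
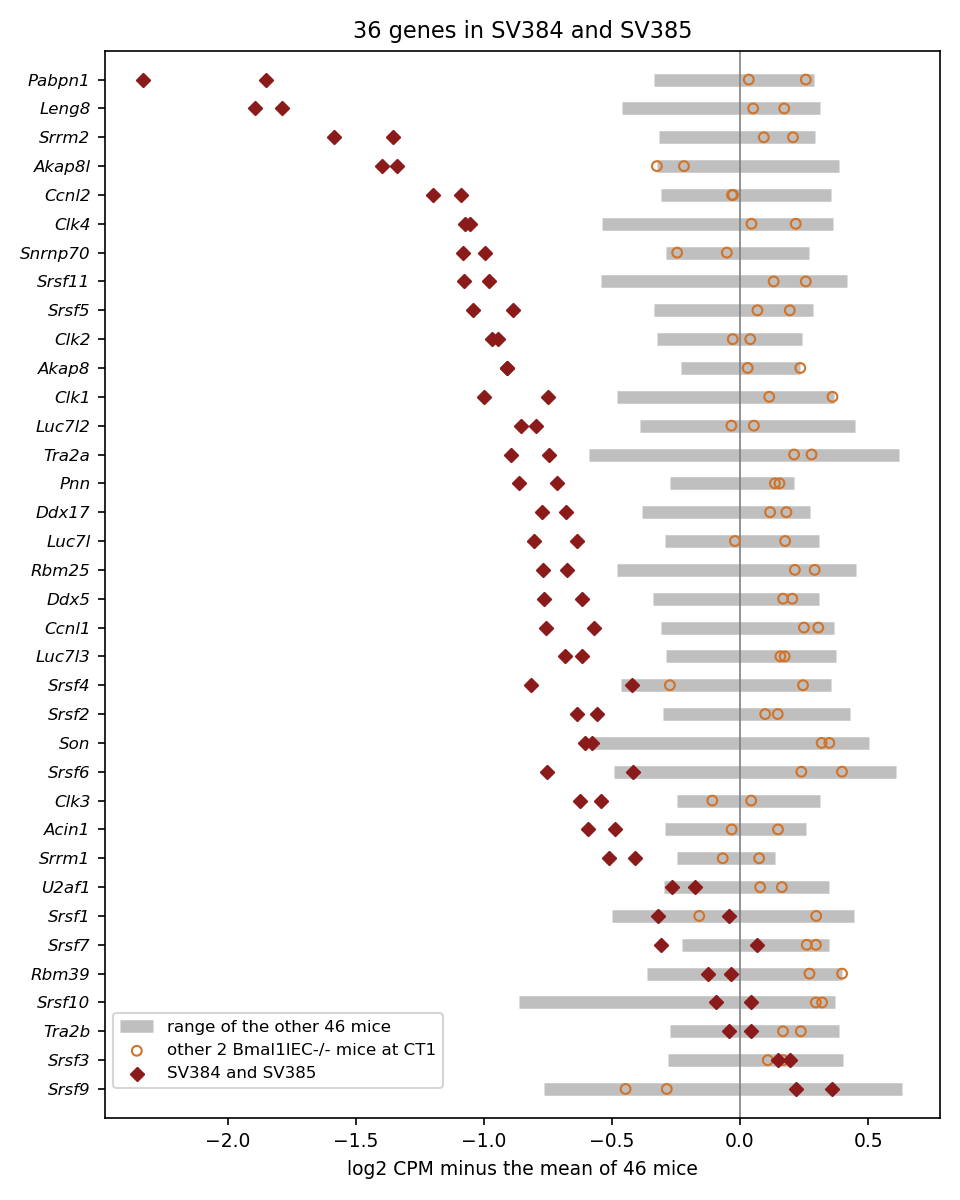
Log2 CPM of each of the 36 genes relative to the mean of the 46 other mice. Grey bars span those 46 mice, open circles are SV479 and SV480 and dark red diamonds SV384 and SV385. From *Pabpn1* (-2.09) at the top to *Srsf9* (0.29) at the bottom, 25 genes have both diamonds left of the grey bar.

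Cell type markers and other shares of the counts in the pair are given beside these values, and their part in the low splicing values was not tested. Smooth muscle markers summed to 4200 CPM in SV384, inside the range of the other 46 mice (4004 to 6760), and to 1162 CPM in SV385, and fibroblast markers to 1948 and 506 CPM against 1123 to 2165. Epithelium markers summed to 26852 and 33452 CPM against 16854 to 25309 in the others, so that both mice were above that range. Of those 14 markers, 1 was above all 46 others in both mice, and 1 was below the 46-mouse mean. Goblet cell markers summed to 16035 CPM in SV384, below the others (16722 to 28858), and to 20376 CPM in SV385. In SV385, macrophage (142 CPM against 226 to 406) and blood and endothelium markers (59.4 CPM against 108 to 184) were below the others. In SV384 these sums were inside the range. Mitochondrial transcripts held 6.60% and 7.41% of counts against 4.07% to 6.71%, and cytosolic ribosomal protein genes 3.53% and 3.51% against 2.41% to 3.72%.

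Non-coding transcripts in the pair are given next. *Malat1*, a long non-coding RNA of speckles, had 217 and 133 CPM against 291 to 901 in the other 46 mice, and *Neat1*, the RNA around which paraspeckles form, had 320 and 345 CPM against 1005 to 2598. Of 10 nuclear long non-coding RNAs tested 6 were below all 46 others, with a median difference of -2.06. By annotated class, the median difference was -1.19 over 137 genes of the provisional TEC class, -0.98 over 215 antisense genes and -0.50 over 216 lincRNAs, against 0.01 over 13247 protein-coding genes. By transcript length the median over all genes went from 0.20 in the shortest of 5 equal classes to -0.17 in the longest. The 10 members in the middle class had a median of -0.80 and the 15 in the next longer class -0.72, against 0.01 and -0.07 over all genes of those lengths. The 5 members in the longest class had -0.65. In the shortest class 3 members had -0.22, and in the second shortest 3 had -0.12, against 0.20 and 0.07 over all genes.

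Other splicing genes were less uniform. Of 24 further SR-related proteins tested, 7 were below all 46 others in the pair, among them *Rsrp1* (250.4 and 268 CPM against 418 to 736) and *Arglu1* (85.0 and 77.2 CPM against 128 to 223), whose products are rich in arginine. Of 23 hnRNP proteins, which often oppose SR proteins, 3 were below, and of 11 paraspeckle proteins 3. Proteins of the core particles were not low, since 0 of 11 Sm and U1/U2 proteins were below and 2 were above all others, with a median difference of 0.42, and over 12 SF3 and U2AF partners (1 below) and 20 factors of the catalytic particles (2 below) the medians were 0.08 and 0.06. Of 10 further SR kinases and phosphatases 1, *Srpk2*, was below and 1 above (median -0.15). Among 14 genes of the exon junction complex 3 were below and 2 above (median 0.20), and among 12 of nonsense-mediated decay 1 was below (median -0.21).

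The same lists gave the wider splicing machinery in the other 46 mice. In control mice 19 of 24 SR-related genes were rhythmic, 14 of them with a day peak, and 14 of 23 hnRNP genes, 8 of 11 paraspeckle genes, 13 of 21 tissue splicing regulators and 9 of 20 catalytic factors were, against 49.8% of all genes. In the exon junction list 4 of 14 were rhythmic, in the decay list 7 of 12, and in the list of further SR kinases and phosphatases 3 of 10. In the Sm and U1/U2 list 6 of 11 were rhythmic in control mice and 0 of those 6 peaked in the day, and in the SF3 and U2AF list 5 of 12 were and 1 peaked in the day. Between genotypes, the Sm proteins *Snrpb2* and *Snrpg* (log2 fold change 0.18 and 0.17, edgeR adjusted p = 0.0273 and 0.0465) and the paraspeckle proteins *Sfpq* and *Taf15* (0.19 and 0.10, adjusted p = 0.0135 and 0.0453) were higher in *Bmal1*IEC-/- mice. Of the SF3 and U2AF list, the exon junction list and the decay list, 0 genes passed. The rhythm differed between genotypes in *Esrp2*, an epithelial splicing regulator (adjusted p = 0.0419). *Neat1* was lower (log2 fold change -0.18, adjusted p = 0.0118), with 3 other nuclear long non-coding RNAs, *Miat*, *Meg3* and *Rian*, and *Malat1* had 0.04 with an adjusted p of 0.858.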

How the data were processed

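RNA from whole colon of 48 mice, 1 library per mouse, was made into libraries with the TruSeq Stranded mRNA kit. The study's methods speak of rRNA depletion with this kit and do not state poly(A) selection, which bears on the values of non-coding RNAs. The deposited table holds raw counts per gene, which the authors made with featureCounts (1.4.6) from reads aligned with STAR (2.7.5c) to mm10. Their processing notes also name FastQC (0.11.5), Trimmomatic (0.39), SAMtools (1.3.1) and DESeq2 (1.22.0). The annotation release and strand setting of the counting, and any batch of extraction or sequencing, are not given in the sources used here. If strand was ignored, reads in exons shared with a gene on the opposite strand were not counted, since reads overlapping several features were left out. Symbols were taken from GENCODE vM21 by Ensembl identifier.

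Counts were fitted with edgeR (4.0.16, R 4.3.3), TMM normalization, its default filter on low counts and the quasi-likelihood test, over 46 mice, with SV384 and SV385 left out. Genotype was tested with circadian time as a factor, and rhythms with 24-h cosine and sine terms for each genotype. P-values were adjusted by the Benjamini-Hochberg method over 14475 genes, with a threshold of 0.05. Each library came from a separate mouse, so p-values measure the spread between mice. Levels are TMM-scaled CPM, and log2 values used a prior count of 1. JTK_cycle was reimplemented in Python (3.11.15, numpy 2.4.6) with 12 phases. Its p-values were corrected over the phases and not over genes. Alternatives were DESeq2 (1.42.0) as a test and as size factors, library size alone, no filter, all 48 mice, other time terms, a fold change of 1.5 and leaving out each mouse. The fits were tested on simulated data. All 36 genes were accounted for. Values were given in full for the 4 smallest p-values of each test in each direction or in day and night, for the 4 largest differences of the pair and for at most 2 genes of a related list, and any other value was chosen after it was seen. The genes and lists were chosen with earlier results of these data known.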

Additional observations from a re-analysis of the deposited data

Results flagged for a closer look

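Among 60 groups of 4 mice that were screened for a single mouse far from the others, 4 had one, and chance gives about 1 in 20 groups. *Tra2b* in *Bmal1*IEC-/- mice at CT5 had 1 low mouse, SV439, at 106 CPM, with the next at 121. *Ccnl2* in control mice at CT17 had 1 high mouse, SV398, at 308 CPM, with the next at 280.4. *Ccnl2* in control mice at CT21 had 1 low mouse, SV433, at 239.8 CPM, with the next at 256. The mean log2 difference over the 36 genes in control mice at CT17 had 1 low mouse, SV438, at -0.0935, with the next at -0.0229.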

How the results depend on the processing

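The 2 genes that differed between genotypes were 2 to 3 when 1 mouse was left out, 1 without a filter on low counts, 1 without a time term and 0 with a fold change of 1.5 required. The 18 control rhythms were 13 to 20 when 1 mouse was left out, 11 without a filter, 7 with all 48 mice and 17 by JTK_cycle. The 11 *Bmal1*IEC-/- rhythms were 7 to 11 when 1 mouse was left out, 7 without a filter and 6 by JTK_cycle. Why these counts moved was not tested. Apart from JTK_cycle, the share of all genes called under each alternative is not given here. The count of genes whose rhythm differed between genotypes was 0 under every alternative run and 0 to 0 when 1 mouse was left out. The number above all other mice in SV384 and SV385 was 0, 0 to 0 when 1 mouse was left out, and 1 against the other 2 *Bmal1*IEC-/- mice at CT1. The number below all other mice, counted after the data had been seen, was 25, and 25 to 26 when 1 mouse was left out. It was 28 with library size alone and 33 against the other 2 *Bmal1*IEC-/- mice at CT1. Of these counts, the share of all genes, 5.71%, is given for the 25 alone. No paired analysis was possible because each mouse carries its own number and the groups share none.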
